A study of Drosophila melanogaster with 6 samples.

Results

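The Dpp/BMP signalling genes of Drosophila melanogaster described here are dpp, gbb, tkv, sax, put, wit, Mad, Med, brk and Dad. They were chosen by symbol, with no measured value in the rule, and all 10 were found among the 17493 genes of the count table. The series holds 6 libraries of polyadenylated RNA, 3 from salivary glands (SG) and 3 from brains together with imaginal discs (BD). Every library came from feeding 3rd instar larvae of the strain y1 w67c23, the progeny of a 6 h egg collection, kept at 25 °C and dissected 4 days after egg laying. No mutation, transgene or treatment set the groups apart, so the labels differ only in the tissue and its type of cell cycle. SG cells are labelled as being in endoreplication, cycles of genome duplication without division that make the gland polyploid, and BD cells as being in mitotic cycles. Per the study, each replicate was biological, and glands and BD tissue were dissected from the same animals. BD is a mixture of neural and epithelial tissue, so a BD value is an average over many cell types.

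Dpp/BMP signalling starts when secreted ligands of the TGF-beta family bring type I and type II receptor kinases together on the surface of a cell. The type II receptor activates the type I receptor, which phosphorylates the Smad protein Mad. Mad then joins the common Smad Medea (Med) and enters the nucleus, where the complex turns target genes on and shuts off brk, the gene for a repressor of the same targets. In imaginal discs Dpp acts as a morphogen that sets the pattern and growth of the wing, and in neurons and muscle the ligand Gbb acts at the neuromuscular junction. Signalling also induces its own inhibitor, the inhibitory Smad gene Dad.

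Libraries held between 45023997 and 56583711 counts. The tissue labels were checked against marker genes. The 11 salivary gland markers summed to 17500, 30454 and 67002 CPM (a gene's counts relative to the scaled library total) in SG replicates 1 to 3, against 279, 281 and 745 CPM in BD replicates 1 to 3. The SG replicates differed in glue protein genes, with 5, 25262 and 217348 counts of Sgs1 in replicates 1 to 3. In BD replicates 1 to 3 Sgs1 had 5, 1520 and 4149 counts, so it rose with the replicate number in both tissues. The cause was not tested. Fat body markers, 7 genes, summed to 278988, 226367 and 187061 CPM in SG replicates 1 to 3 and to 4365, 712 and 1659 CPM in BD replicates 1 to 3. In each SG library they summed to more than the salivary gland markers. An SG value may therefore hold fat body RNA as well as gland RNA, and the part of fat body RNA in the SG levels below was not tested. Neuron and imaginal disc markers were present in SG, and among the SG libraries all 7 neuron and all 6 disc markers were lowest in replicate 2. Here and below, CPM is scaled with TMM, the trimmed mean of M values, which takes the bulk of genes as unchanged between libraries, and RPKM is the same value per kilobase of exon.

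The Dpp/BMP genes were mostly lower in SG than in BD, and the ligand gene gbb was higher, in a direction that turned round when libraries were scaled to their totals alone. Of the 10, 7 were called lower in SG (dpp, tkv, sax, put, wit, Med and Dad), 1 was called higher (gbb) and 2 were called neither (Mad and brk). The calls needed a log2 fold change of 0.5 or more in size and, in edgeR's quasi-likelihood test, an adjusted p no higher than 0.05. By that rule 35.3% of the 11369 genes tested were lower, 34.5% were higher and 69.8% were either. The Dpp/BMP genes were thus called in either direction about as often as genes at large, mostly on the lower side. The median log2 fold change of SG over BD was −0.75 over the 10 genes and −0.03 over all genes tested. The 3 SG values did not overlap the 3 BD values in 9 of the 10, against 81.2% of all genes tested. These levels are shares of the RNA in a library and not amounts per cell, so lower in SG need not mean less RNA per cell. In whole tissues, the part of cells that express a gene and its level in those cells cannot be told apart.

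**Figure D1:**
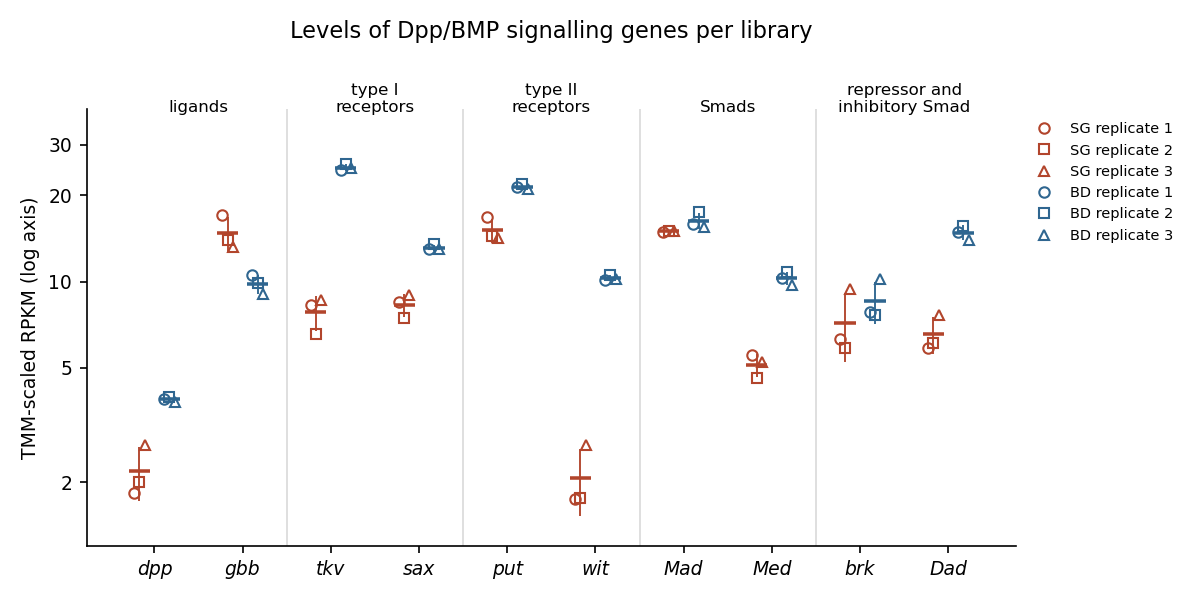
Level of each Dpp/BMP gene in each library, as TMM-scaled RPKM on a log axis, with SG to the left of BD; horizontal lines are group means and vertical lines are 1 SD (n = 3 each). The SG points lie below the BD points for dpp, both type I receptor genes, both type II receptor genes, Mad, Med and Dad, above them for gbb and among them for brk.

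The ligand genes went opposite ways. The gene dpp (FBgn0000490, Release 6 chromosome 2L, 2428372 to 2459823, plus strand) encodes the main patterning ligand of the discs. It was at 9.57, 10.4 and 14.1 CPM in SG replicates 1 to 3, against 20.3, 20.6 and 19.9 CPM in BD replicates 1 to 3. Each SG library was below each BD library, and SG replicate 3 was the nearest to BD. The log2 fold change was −0.84 ± 0.16 (SE), with a 95% interval of −1.23 to −0.44 and an adjusted p of 0.00389 in edgeR's quasi-likelihood test. Left out one at a time, the 6 libraries moved this value between −1.0 and −0.72 and ended no call.

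The ligand gene gbb, for glass bottom boat (FBgn0024234, chromosome 2R, 23851562 to 23853247, plus strand), was at 28.8, 23.5 and 22.3 CPM in SG replicates 1 to 3, against 17.8, 16.7 and 15.3 CPM in BD replicates 1 to 3. All SG libraries were above all BD libraries, and SG replicate 1 was the highest. SG exceeded BD by 1.5-fold, a log2 fold change of 0.59 ± 0.13 (SE, adjusted p = 0.00663). The higher call depended on the scaling and on 1 library. Scaled to the library total alone, gbb had a log2 fold change of −0.51 and was called lower, a setting in which the median of all genes shifted by −1.10 and gbb stayed 0.62 above that median. Scaled by upper quartiles it had 0.40, and without SG replicate 1 it had 0.48, neither of them past the fold-change threshold. The summed fat body markers were also highest in SG replicate 1 and lowest in replicate 3, as gbb was. That order held for 4 of the 7 fat body genes, the Lsp genes, and not for Fbp1, Fbp2 or apolpp, and their part in the gbb level was not tested.

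Per kilobase of exon, gbb was the more abundant ligand transcript in both tissues. In SG, gbb averaged 14.8 ± 2.06 RPKM and dpp 2.18 ± 0.463 RPKM, and in BD gbb averaged 9.82 ± 0.741 RPKM and dpp 3.89 ± 0.0708 RPKM (SD, n = 3 each). The ratio of dpp to gbb within a library, which no scaling between libraries can alter, was 0.107, 0.143 and 0.204 in SG replicates 1 to 3, against 0.370, 0.399 and 0.421 in BD replicates 1 to 3. All SG ratios were below all BD ratios. On the log2 scale the difference was −1.44, so dpp made up 13.1 ± 3.67% of the summed ligand RPKM in SG and 28.4 ± 1.30% in BD (SD, n = 3 each). With 3 libraries against 3, the two-sided exact permutation test cannot go below p = 0.1, and this ratio and each of the other 4 described below gave exactly that value, before and after adjustment over the 5 ratios.

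Both type I receptor genes were lower in SG. The gene tkv, for thickveins (FBgn0003716, chromosome 2L, 5219000 to 5271384, minus strand), encodes the principal Dpp receptor kinase of the wing disc. It had 36.7, 29.1 and 38.1 CPM in SG replicates 1 to 3, against 108, 114 and 110 CPM in BD replicates 1 to 3. SG values were about a factor of 3 below BD, and the BD libraries lay within a narrow range. For tkv the log2 fold change was −1.68 ± 0.12 (SE, 95% interval −1.98 to −1.38, adjusted p = 9.28e-05, edgeR). Of its exon bases, 4.78% lie opposite exons of TpnC25D and CR14033 on the other strand, a stretch where reads could be shared if strand was not used in counting.

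The gene sax, for saxophone (FBgn0003317, chromosome 2R, 7806484 to 7810067, plus strand), encodes the other type I receptor of the BMP branch. Its levels were 24.3, 21.3 and 25.6 CPM in SG replicates 1 to 3, against 37.2, 38.7 and 37.1 CPM in BD replicates 1 to 3. The groups were apart with no overlap, by less than for tkv. SG was below BD by a log2 fold change of −0.66 ± 0.10 (SE, adjusted p = 0.00109). Within SG libraries the RPKM ratio of tkv to sax was 0.978, 0.882 and 0.961, against 1.89, 1.91 and 1.92 within BD libraries. The receptor transcripts were thus at nearly equal levels per kilobase in SG, with tkv at 48.4 ± 1.38% of their sum, while in BD tkv was the larger part at 65.5 ± 0.183% (SD, n = 3 each). The difference of the log2 ratios was −1.02 (exact permutation p = 0.1), and leaving out any 1 library kept it between −1.05 and −0.97.

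The type II receptor genes showed the widest contrast between partners. The gene wit, for wishful thinking (FBgn0024179, chromosome 3L, 4064152 to 4071717, minus strand), encodes a receptor that motor neurons need for the growth of their synapses. It was at 7.39, 7.42 and 11.3 CPM in SG replicates 1 to 3, against 42.9, 44.5 and 43.2 CPM in BD replicates 1 to 3. SG replicate 3 was the highest SG library and still far under BD. BD exceeded SG by 4.99-fold, and the log2 fold change of −2.32 ± 0.19 (SE, 95% interval −2.79 to −1.85, adjusted p = 1.40e-04, edgeR) was the lowest of the 10 genes. Of the exon bases of wit, 9.49% lie opposite exons of dib.

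The gene put, for punt (FBgn0003169, chromosome 3R, 14619030 to 14625703, minus strand), encodes the type II receptor that serves the BMP and the activin branch. It had 67.4, 57.7 and 56.8 CPM in SG replicates 1 to 3, against 85.9, 87.7 and 84.8 CPM in BD replicates 1 to 3. The groups did not overlap, and SG replicate 1 was nearest to BD. At −0.51 ± 0.09 (SE, adjusted p = 0.00287), the log2 fold change was just past the threshold of 0.5. Without SG replicate 2 it was −0.45, without SG replicate 3 −0.44, and without BD replicates 1, 2 or 3 it was −0.47, −0.45 or −0.48, each with an adjusted p under 0.05 but short of the fold-change threshold. Without SG replicate 1 it was −0.58 and was called.

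Since wit was lower by more than put, put made up more of the type II receptor transcripts in SG than in BD. The RPKM ratio of put to wit was 9.59, 8.17 and 5.26 in SG replicates 1 to 3, against 2.11, 2.07 and 2.06 in BD replicates 1 to 3. The ratios did not overlap, and SG replicate 3, the library with the most wit, had the lowest SG ratio. The log2 difference was 1.84 (exact permutation p = 0.1), the largest in size of the 5 ratios, and ranged from 1.66 to 2.09 with 1 library left out. The share of wit in the summed type II RPKM was 12.1 ± 3.42% in SG and 32.5 ± 0.236% in BD (SD, n = 3 each).

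**Figure D2:**
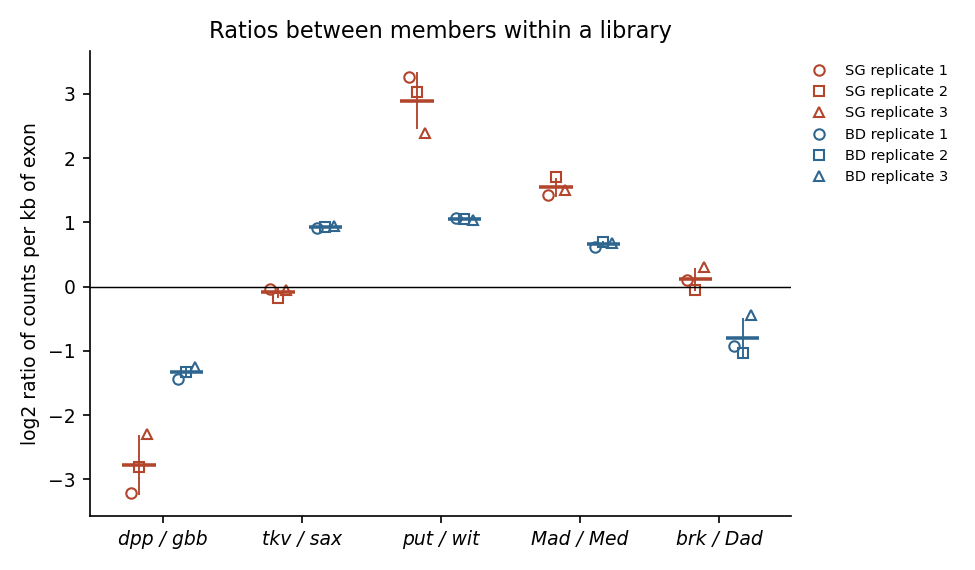
Log2 ratio of counts per kilobase between partner genes within each library, with SG to the left of BD; horizontal lines are means and vertical lines 1 SD (n = 3 each). The SG and BD points do not overlap in any of the 5 ratios: dpp to gbb and tkv to sax were lower in SG, and put to wit, Mad to Med and brk to Dad were higher. The share of gene pairs at large without overlap was not computed. Of all single genes tested, 81.2% did not overlap.

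Of the Smad genes, Mad differed little and Med was lower in SG. Mad, for Mothers against dpp (FBgn0011648, chromosome 2L, 3146056 to 3159643, minus strand), encodes the receptor-activated Smad of the BMP branch. It was at 50.8, 51.4 and 51.1 CPM in SG replicates 1 to 3, against 54.2, 59.7 and 53.0 CPM in BD replicates 1 to 3. The SG libraries were closer to each other for Mad than for any other of the 10 genes, with a coefficient of variation of 0.599%, and all lay just under BD. That variation is smaller than the counting error of 1592 to 1883 counts, so the closeness need not be a trait of Mad. The log2 fold change was −0.12 ± 0.08 (SE) with an adjusted p of 0.196, and its 95% interval of −0.32 to 0.07 lies inside the fold-change threshold on both sides. The same gene was called lower at −1.22 when libraries were scaled to their totals alone, which was −0.09 relative to the median of all genes in that setting.

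Med (FBgn0011655, chromosome 3R, 31611046 to 31615375, plus strand), the common partner Smad of the BMP and activin branches, was at 19.0, 15.8 and 18.0 CPM in SG replicates 1 to 3, against 35.4, 37 and 33.3 CPM in BD replicates 1 to 3. Every SG library was far below every BD library. Its log2 fold change of −1.0 ± 0.10 (SE, 95% interval −1.25 to −0.75, adjusted p = 2.88e-04, edgeR) corresponds to 2.00 times as much in BD. Exons of CycG and Mnat9 lie opposite 12.4% of the exon bases of Med. The RPKM ratio of Mad to Med was 2.68, 3.26 and 2.85 in SG replicates 1 to 3, against 1.54, 1.62 and 1.60 in BD replicates 1 to 3. Mad exceeded Med per kilobase in both tissues and did so by more in SG, where Med made up 25.5 ± 1.88% of the pair, than in BD, where it made up 38.7 ± 0.641% (SD, n = 3 each, log2 difference 0.88, exact permutation p = 0.1).

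The genes that respond to the pathway, brk and Dad, were of unlike behaviour. Dad, for Daughters against dpp (FBgn0020493, chromosome 3R, 17054007 to 17070408, plus strand), encodes the inhibitory Smad that the pathway induces. It had 23.0, 23.9 and 29.9 CPM in SG replicates 1 to 3, against 58.2, 61.3 and 54.4 CPM in BD replicates 1 to 3. SG replicate 3 was the highest of the SG libraries and well under every BD library. The difference on the log2 scale was −1.18 ± 0.13 (SE, 95% interval −1.49 to −0.87, adjusted p = 3.46e-04, edgeR), exceeded in size only by those of wit and tkv.

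The gene brk, for brinker (FBgn0024250, chromosome X, 7307939 to 7311132, plus strand), encodes the repressor that Dpp signalling shuts off. It was at 20.2, 18.7 and 30.1 CPM in SG replicates 1 to 3, against 25.1, 24.4 and 32.7 CPM in BD replicates 1 to 3. The groups overlapped, replicate 3 was the highest library in both tissues, and SG was below BD at each replicate number. The log2 fold change was −0.25 ± 0.22 (SE) with an adjusted p of 0.333 and a 95% interval of −0.79 to 0.29, wide enough to hold a difference past the threshold. Without SG replicate 3 the value was −0.47, with an adjusted p of 0.0435, and without BD replicate 3 it was −0.08. With the replicate number as a block it was −0.27 ± 0.10 (SE), with an adjusted p of 0.0647, and was again not called. Scaled to library totals alone, brk was called lower at −1.34. The RPKM ratio of brk to Dad was 1.08, 0.960 and 1.23 in SG replicates 1 to 3, against 0.527, 0.486 and 0.735 in BD replicates 1 to 3. Repressor and inhibitory Smad transcripts were thus at similar levels per kilobase in SG, and Dad was the higher in each BD library (log2 difference 0.92, exact permutation p = 0.1).

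**Figure D3:**
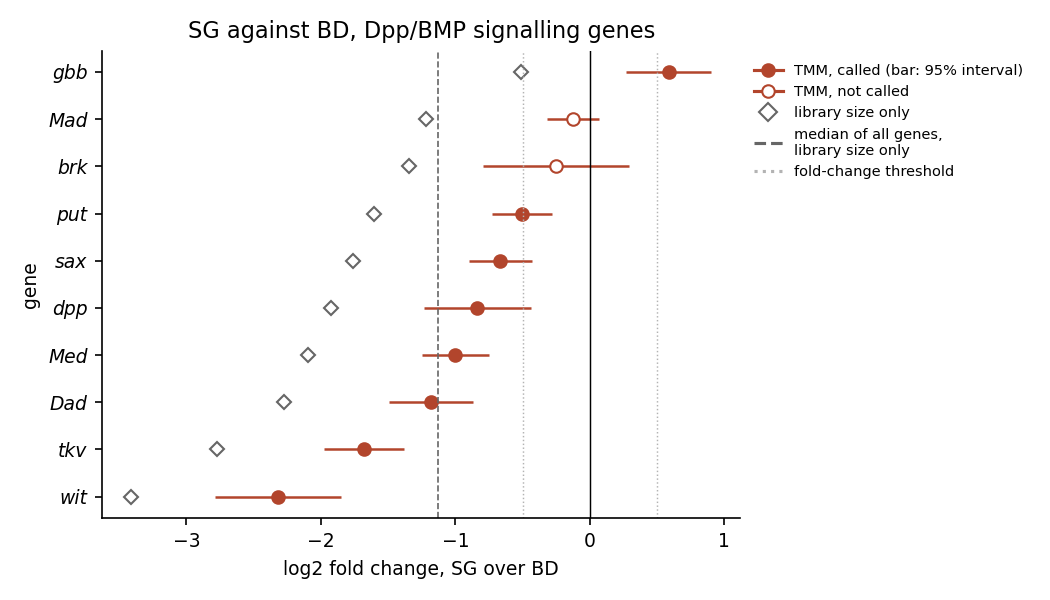
Log2 fold change of SG over BD for each Dpp/BMP gene, with 95% intervals under TMM scaling (circles, filled where called) and the value under library-total scaling (diamonds); the dashed line is the median of all genes under library-total scaling, −1.13, and dotted lines mark the threshold of 0.5. The order of the genes is the same under both scalings, which differ by nearly the same shift for every gene. With TMM it runs from wit at −2.32 to gbb at 0.59, and every diamond lies below 0.

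The number of the 10 genes called lower depended on the scaling. Scaled to library totals alone, all 10 were called lower, in a setting where 62.5% of all genes were lower and 14.0% higher. Relative to the median of all genes in that setting, wit was at −2.28, tkv at −1.64, Dad at −1.14, Med at −0.97, dpp at −0.80 and gbb at 0.62. These are close to the TMM values. TMM factors were 0.664 to 0.700 in SG and 1.46 to 1.47 in BD, so the change of scaling moved all genes by nearly the same amount. The closeness follows from that and is no separate check. With TMM, wit was at the 17.5th percentile of the log2 fold changes of all genes tested, tkv at the 22.8th, Dad at the 27.9th, Med at the 30.4th, dpp at the 33.1st and gbb at the 65.6th.

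The order of levels per kilobase differed between the tissues. In SG, put (15.1 ± 1.46 RPKM), Mad (15 ± 0.0897 RPKM) and gbb (14.8 ± 2.06 RPKM) led and could not be ranked among themselves, since their ranges overlapped (SD, n = 3 each). Next came sax, tkv, brk and Dad, from 8.29 to 6.54 RPKM, where each neighbour overlapped the next. Med followed at 5.14 ± 0.474 RPKM, apart from its neighbours on both sides, and dpp and wit came last and overlapped. In BD, tkv led at 25.0 ± 0.677 RPKM and put followed at 21.5 ± 0.370 RPKM, with no overlap. Mad and Dad overlapped next, at 16.3 ± 1.04 and 14.8 ± 0.891 RPKM, and sax stood alone at 13.1 ± 0.315 RPKM. The next 4 genes, wit, Med, gbb and brk, ran from 10.3 to 8.57 RPKM with each neighbour overlapping the next, and dpp was last. The gene tkv stood in the middle of the SG order and at the top of the BD order, and gbb stood in the leading set in SG and in the lower part of the BD order. Among all genes tested, tkv was at the 52.3rd percentile of RPKM in SG and the 82.6th in BD, wit at the 34.2nd in SG and the 59.3rd in BD, and gbb at the 65.1st in SG and the 57.7th in BD.

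SG libraries were less alike than BD libraries. The coefficient of variation of the CPM was larger in SG for 9 of the 10 genes, all but Mad, with a median of 14.0% in SG and 4.01% in BD. SG replicate 3 had the highest SG level of 6 of the genes. Set against the mean of the other 2 SG libraries, SG replicate 3 had 1.41 times the dpp, 1.53 times the wit and 1.55 times the brk. It was also the SG replicate with the most salivary gland marker RNA and the most neuron marker RNA, and the part of either in these levels was not tested.

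Markers of neurons and discs were detected in the SG libraries, and the Dpp/BMP genes were set beside them. The 7 neuron markers had a median of 4.58%, 0.967% and 7.0% of their BD mean in SG replicates 1 to 3, and summed to 117 to 236 CPM in SG and 1707 to 2075 CPM in BD. The 6 imaginal disc markers had medians of 7.80%, 3.81% and 12.8%, and summed to 39.7 to 69.6 CPM in SG and 413 to 449 CPM in BD. None of the markers in either list was at 0 in SG. Single markers stood far above these medians: the neuron marker Syt1 was at 31.5%, 24.9% and 31.8% of its BD mean and made up 97.3 of the 117 CPM in SG replicate 2, and the disc marker ap was at 87.0%, 58.0% and 60.8%. The Dpp/BMP genes lay above these medians: wit, the lowest, was at 17%, 17.1% and 26.1% of its BD mean, tkv at 33.1%, 26.3% and 34.4%, and dpp at 47.2%, 51.3% and 69.6%.

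The drop of most neuron and disc markers in SG replicate 2 was larger than that of the 10 genes. In that library the 10 genes were at 0.745 to 1.01 times the mean of the other 2 SG libraries, with a median of 0.866, against a median of 0.171 for the neuron markers, 0.411 for the disc markers and 0.926 for all genes tested. The markers Syt1 (0.787) and ap (0.785) lay within the range of the 10 genes, and the other 6 neuron and 5 disc markers lay below it. When SG replicate 2 alone was set against the 3 BD libraries, assuming that it varied as the BD libraries do, the calls were those of the full comparison for all 10 genes. Again 7 were lower and 1 higher, where 35.2% of all genes were lower and 33.4% higher, and the log2 fold changes were −2.53 for wit, −1.91 for tkv, −1.13 for Med, −0.94 for dpp and 0.53 for gbb. Markers of glia, hemocytes, muscle and trachea had medians of 9.02% to 30.7% of their BD mean in the SG libraries. Single markers went the other way. The glia marker moody was at 126% to 171% of its BD mean, the hemocyte marker srp at 288% to 377% and the muscle marker bt at 161% to 253%. These 3 were called higher in SG, against 3 glia, 4 hemocyte and 4 muscle markers called lower. The part of these cell types in the Dpp/BMP levels was not tested.

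**Figure D4:**
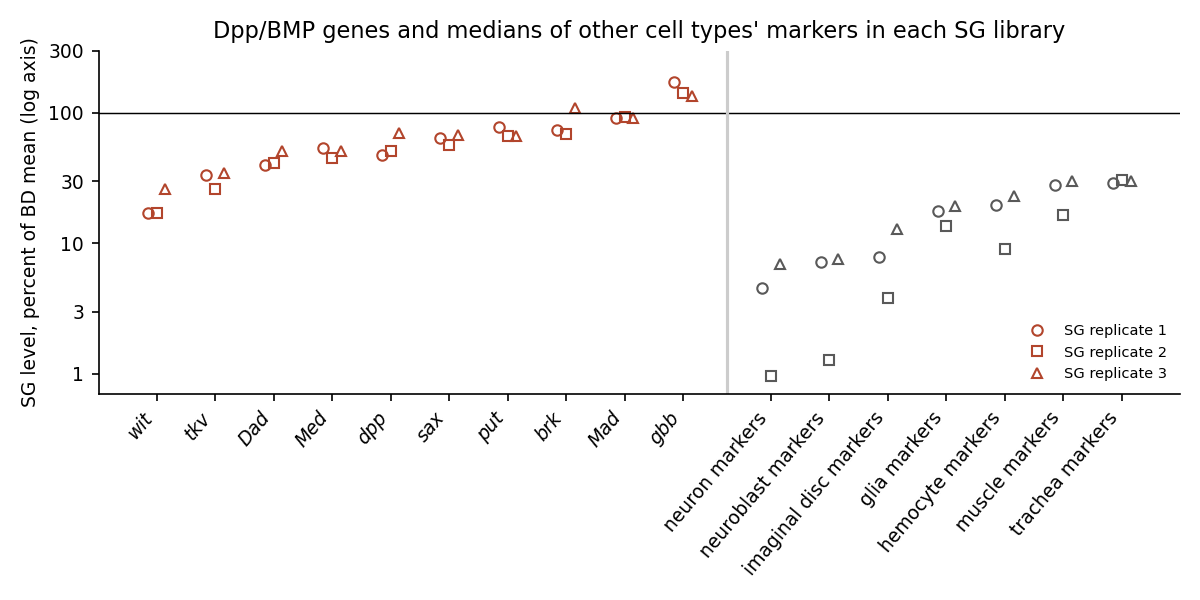
Level of each Dpp/BMP gene (left) and median level of marker lists of other cell types, without fat body (right), in the 3 SG libraries, as a percent of the BD mean of the same gene, on a log axis. The medians of neuron, neuroblast and disc markers were lowest in SG replicate 2, where that of neuron markers was 0.967%. In that library the Dpp/BMP genes ran from 17.1% for wit to 142% for gbb. Of the 10 genes, 4 were lowest there among the SG libraries.

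The wider TGF-beta pathway was read from lists of 37 further genes: other ligands, the activin branch, extracellular and intracellular modulators, and targets of Dpp in the discs. Of these, 36 passed the filter on low counts. In SG, 20 were called lower, 3 were called higher and 13 were neither, against the 35.3% lower and 34.5% higher of all genes, and their median log2 fold change was −0.79. Both the signalling genes and the wider set therefore held more lower than higher calls, and the disc targets were the lowest of these lists.

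Among the other ligands, 2 of 4 tested were lower in SG and none was higher, where 35.3% of all genes tested were lower and 34.5% higher. Actbeta, an activin ligand made in neurons, was at 2.64, 0.904 and 3.31 CPM in SG replicates 1 to 3, against 45.2, 48.5 and 52.2 CPM in BD replicates 1 to 3 (log2 fold change −4.40 ± 0.46 SE, adjusted p = 3.21e-04). It was lowest in SG replicate 2, as the neuron markers were, and with that replicate alone the value was −5.73. The ligand maverick (mav) was also lower, by a log2 fold change of −2.06 ± 0.26 (SE, adjusted p = 6.32e-04). The activin-like ligands dawdle (daw, 0.21 ± 0.32) and myoglianin (myo, 0.01 ± 0.18) were called neither and overlapped between tissues. Their signs were not stable: without SG replicate 3 daw was at −0.0041 and myo at −0.19, and without BD replicate 2 myo was at −0.0057. The ligand gene scw, known from the early embryo, had 0, 0 and 6 counts in SG and 0, 1 and 3 counts in BD and was not tested. Of the activin branch, the receptor-activated Smad gene Smox was lower in SG (−0.78 ± 0.14 SE, adjusted p = 0.00303) and the type I receptor gene babo was at −0.27 ± 0.10, under the fold-change threshold.

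Extracellular modulators shape how far BMP ligands spread and when they are released. Of 12 tested, 6 were lower in SG and 1 was higher, with a median log2 fold change of −0.61. Of all genes tested, 35.3% were lower and 34.5% higher. The glypican gene dlp, whose product carries ligands along the disc surface, was at −2.04 ± 0.14 (SE, adjusted p = 7.50e-05), and tld, for a protease that frees ligands from their inhibitor, was at −1.82 ± 0.11 (SE, adjusted p = 6.04e-05). The ligand-binding gene tsg was called lower on few reads, with 1, 1 and 0 counts in SG and 16, 20 and 14 counts in BD, a ratio of 0.0892 of the scaled sums with an exact 95% counting interval of 0.0105 to 0.339. The secreted modulator magu was higher in SG with TMM, at 62.0, 50.1 and 61.1 CPM in SG replicates 1 to 3, against 34.3, 34.6 and 39.6 CPM in BD replicates 1 to 3. Its log2 fold change was 0.67 ± 0.12 (SE, adjusted p = 0.00248), and −0.42 with library totals alone. With upper quartiles it was 0.49 and with SG replicate 2 alone 0.49, both short of the threshold. Genes on the other strand lie opposite 18.8% of its exon bases.

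Of the 10 intracellular modulators, 4 were lower in SG and 2 higher, where 35.3% of all genes tested were lower and 34.5% higher. The largest difference was that of cmpy, for crimpy, a neuronal partner of Gbb, at 2.00, 0.258 and 2.15 CPM in SG replicates 1 to 3, against 38.4, 44.1 and 41.6 CPM in BD replicates 1 to 3 (log2 fold change −4.80 ± 0.67 SE, adjusted p = 9.66e-04). Like Actbeta it was lowest in SG replicate 2, and with that replicate alone the value was −7.29. The kinase gene nmo was at −2.78 ± 0.17 (SE, adjusted p = 6.04e-05) and the corepressor gene CtBP at −1.11 ± 0.10 (SE, adjusted p = 1.76e-04). The higher genes with TMM were shn, for the DNA-binding partner with which the Smads silence brk, at 0.56 ± 0.12 (SE, adjusted p = 0.00532), and Fkbp12, for a protein that binds type I receptors, at 0.58 ± 0.18 (SE, adjusted p = 0.0233). Neither call held with each library left out in turn. For shn the value was 0.47 without SG replicate 2. For Fkbp12 it was 0.42 without SG replicate 1, and without BD replicate 2 or BD replicate 3 the adjusted p was 0.0602 or 0.0707. With library totals alone shn was at −0.54 and Fkbp12 at −0.52, and with upper quartiles shn was at 0.37 and Fkbp12 at 0.39, neither of them called.

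The disc targets of Dpp were the most reduced of the pathway lists, with 7 of 8 lower in SG, none higher and a median log2 fold change of −2.77. Of all genes tested, 35.3% were lower and 34.5% higher. The imaginal disc markers, with all 6 called lower, had a median of −3.61, so a reduction of this size was not particular to Dpp targets. The zinc finger gene salr was at −3.95 ± 0.56 (SE, adjusted p = 9.88e-04), its neighbour and relative salm at −3.69 ± 0.63 (SE, adjusted p = 0.00215), and bi, the optomotor-blind gene, at −3.19 ± 0.31 (SE, adjusted p = 2.45e-04). In SG replicates 1 to 3 salm had 3.24, 0.452 and 2.09 CPM, against 24.5, 25.8 and 25.0 CPM in BD replicates 1 to 3. It was lowest in SG replicate 2, where the disc markers were lowest too, and the part of disc RNA in the SG level was not tested. The values with SG replicate 2 alone were −5.77 for salm, −5.56 for salr and −3.94 for bi, and without SG replicate 1 salm was at −4.28.

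**Figure D5:**
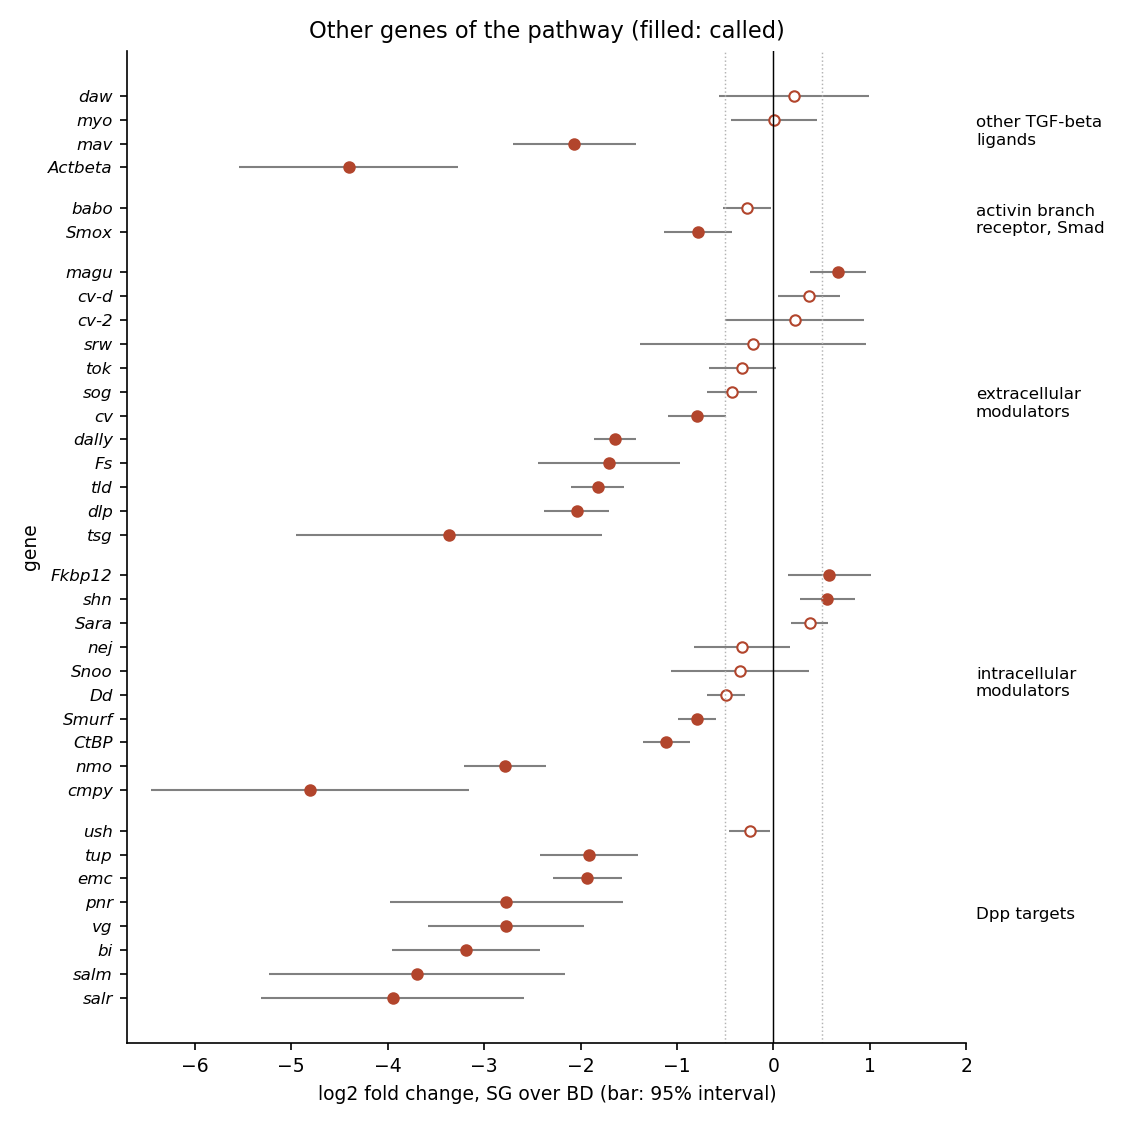
Log2 fold change of SG over BD, with 95% intervals, for the 36 tested genes of the wider TGF-beta pathway, grouped by role; filled points were called and dotted lines mark the threshold of 0.5. Most points lie left of 0, from cmpy at −4.80 to magu at 0.67 with TMM (−0.42 for magu with library totals alone), and the point of tsg rests on 2 counts in SG.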

How the data were processed

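The study and the submitters' notes name FastQC 0.11.5 for read quality, STAR 2.6.1a for alignment to Release 6 and featureCounts for counting over exons. Libraries were made with a stranded kit. How featureCounts used strand, and how it treated reads with several matches, is not given in the sources used here. Values deposited by the authors are whole-number counts per gene, with no normalization. The authors also deposited a table of their own comparison (log2 fold changes and p-values), which was not used.

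Counts were tested in R 4.3.3 with edgeR 4.0.16: filterByExpr, TMM scaling and a quasi-likelihood F test with tissue as the only term, adjusted by the Benjamini-Hochberg method over 11369 genes. Every row of the table named a gene, by its identifier in the 5 rows where the symbol had been turned into a date. Levels are TMM-scaled CPM, and RPKM uses the deposited exon lengths. The detection floor of a library was set at 3 counts, 0.0530 to 0.0666 CPM before scaling, and floors and counting intervals cover counting error only. Ratios between Dpp/BMP genes were tested by two-sided exact permutation over the 6 libraries. Alternatives were other scalings, no filter, DESeq2 1.42.0, limma-voom (limma 3.58.1), a replicate block and leaving out libraries. No replicates were duplicates: their counts differed by a chi-square of 38.0 to 539 per degree of freedom.

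Coordinates are from the Ensembl release 115 annotation of Release 6, in which exon lengths equalled the deposited ones for all 10 genes. Of these, 9 matched by identifier and Med by symbol. The Dpp/BMP genes and all lists were chosen with earlier results of these data known. Of the wider lists, every gene of a list of at most 6 tested genes was named, and of a longer list the 3 genes called higher and the 3 called lower with the largest changes. Markers were kept as lists, apart from the single markers named above, which were picked after their values were seen. Scripts were tested on simulated data.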

Additional observations from a re-analysis of the deposited data

How the results depend on the processing

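Of the 10 Dpp/BMP genes, dpp, tkv, sax, wit, Med and Dad kept their direction and their call under every alternative run, and put lost its call only when 1 library was left out. Library-total scaling gave 1588 genes called higher and 7111 lower in place of 3924 and 4010, so that 18.3% of called genes were higher in place of 49.5%, and moved the median of all genes by −1.10. Under it 0 Dpp/BMP genes were higher, with gbb at −0.51, daw at −0.88, myo at −1.09, magu at −0.42, Fkbp12 at −0.52 and shn at −0.54. The cause was not tested. With upper quartiles, 0 Dpp/BMP genes were higher and 3439 and 4501 of all genes were higher and lower. Without SG replicate 1 the count was again 0. In these settings edgeR gave 0, 1 and 1 Dpp/BMP genes above 0 at an unadjusted p under 0.05. DESeq2 and limma-voom were not run in these settings, and each called 1 higher on all 6 libraries.

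The gene myo, which had no call and a value of 0.01, changed sign with DESeq2 size factors in edgeR (−0.0027), upper quartiles (−0.18), no filter (−0.048), DESeq2 (−0.0027), limma-voom (−0.013), without SG replicate 3 (−0.19), without BD replicate 2 (−0.0057) and with SG replicate 2 alone (−0.23). Without SG replicate 2 it had 0.15. The gene daw did so without SG replicate 3 (−0.0041) and with SG replicate 2 alone (−0.49), and had 0.50 without SG replicate 2. The causes were not tested.

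With 1 library left out, 0 to 1 Dpp/BMP genes were higher and 6 to 7 lower, and 3805 to 4011 of all genes were higher and 3709 to 4154 lower. Ratio differences then ranged from −1.68 to −1.21 for dpp to gbb, −1.05 to −0.97 for tkv to sax, 1.66 to 2.09 for put to wit, 0.80 to 0.94 for Mad to Med and 0.80 to 1.10 for brk to Dad.

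The study took both tissues of its replicates from the same animals, but no source used here says that a number marks the same larvae in both. Counts of the glue gene Sgs1 rose with the replicate number in both tissues. Deviations of same-numbered SG and BD libraries had correlations of 0.33, 0.0769 and 0.222, and the comparison was made without a block. A replicate block gave 3893 genes higher and 3985 lower, changed no Dpp/BMP call, narrowed the SE of brk to 0.10 in place of 0.22 and put myo at −0.014. Paired ratios had the same differences by arithmetic, since the mean of the paired differences is the difference of the means.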
